A study of Mus musculus with 12 samples.

Results

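The 4 genes described here belong to the transforming growth factor beta (TGF-beta) superfamily of signals: Inhba, Tgfb1 and Bmp6 encode ligands, and Acvr1 encodes a receptor. They were chosen by name from the 8267 genes that could be named on the arrays, and each was read by 1 probe. Inhba, Tgfb1 and Acvr1 came from earlier results of these data, in which they were higher after 4 h of BMP6 than in controls, so their 4 h values are given below as a description with no test. Bmp6, the gene of the ligand that was added to the cells, is treated the same way. RNA came from MECs, a line of mouse endothelial cells of intraembryonic origin, and was measured on 12 two-colour oligonucleotide arrays with 3 arrays in each of 4 groups. The groups were mock-treated control cells, for which no time is given, and cells that had received BMP6 4, 12 or 24 h earlier. The dose of BMP6 is not given in the sources used here. All groups were the same line, and each array carried cell RNA in Cy5 beside a universal mouse reference RNA in Cy3.

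Ligands of this superfamily bind pairs of type I and type II receptor kinases on the cell surface, which phosphorylate SMAD proteins that enter the nucleus and change transcription. BMP ligands act mainly through SMAD1, SMAD5 and SMAD9, and TGF-beta and activin ligands mainly through SMAD2 and SMAD3. Inhba encodes the subunit that dimerises into activin A, Tgfb1 encodes TGF-beta 1, and Acvr1 encodes the type I receptor ALK2, one of the receptors through which BMP6 signals. In endothelium both arms of the pathway are known for roles in vessel growth and in the change of endothelial into mesenchymal cells.

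Values are log ratios of cells to reference RNA, read here as log2, with the Cy5 channel of the cells on top. Neither the base nor the direction is stated, so with the opposite direction every difference below would change sign. The 12 arrays held 20280 values each, with medians between -0.0440 and 0.0020, and correlations between arrays ran from 0.877 to 0.980. Gene names rest on an order of the array positions inferred from the data, in which the first 2 probes of a gene correlated at r = 0.471 over 1831 genes, against 0.021 in the deposited order. With 1 probe per gene here, that agreement could not be checked for these 4 genes singly. In control cells 0 of the 8 measured endothelial markers had a mean above the reference RNA. The means ran from -1.62 for Cdh5 to -0.01 for Sox18, with Pecam1 at -1.42 and Kdr at -1.25, which does not show whether they were expressed. With the opposite direction of the ratio all 8 would stand above the reference. Of blood cell and epithelial markers, 0 of 2 and 1 of 8 lay above it in control cells. Of fibroblast and mesenchymal markers 4 of 7 did, and of smooth muscle markers 3 of 5.

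Differences were tested with limma over all 8267 genes, with Benjamini-Hochberg adjusted p under 0.05 as the threshold. The titles number the arrays of each group 1 to 3, and same-numbered arrays deviated together, so a fit with this number as a block is given beside the fit without it. The labels call the replicates independent biological ones. In bulk RNA, a change in the cells that make a transcript and a change in RNA per cell cannot be told apart.

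The 250 bases before the 1 transcription start that the RefSeq table gives for each gene are shown because Inhba, Tgfb1 and Acvr1 were high together at 4 h while Bmp6 was not. They are RefSeq sequences of build GRCm38.p6, written 5′ to 3′ on the strand of the gene, with capitals marking AGAC on either strand, the core of the SMAD binding element. The windows lie at chr13:16011601-16011850 (+) for Inhba, chr7:25686752-25687001 (+) for Tgfb1, chr2:58566829-58567078 (-) for Acvr1 and chr13:38345466-38345715 (+) for Bmp6. The windows of Tgfb1, Acvr1 and Bmp6 abut the annotated gene, whereas that of Inhba lies inside its RefSeq locus, which begins upstream at position 16004256, and so belongs to a start downstream of the first annotated one.
Inhba: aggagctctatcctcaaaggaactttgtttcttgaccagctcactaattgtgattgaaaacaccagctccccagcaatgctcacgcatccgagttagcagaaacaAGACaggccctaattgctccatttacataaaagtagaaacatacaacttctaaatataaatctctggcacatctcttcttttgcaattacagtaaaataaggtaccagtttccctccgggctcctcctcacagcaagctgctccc
Tgfb1: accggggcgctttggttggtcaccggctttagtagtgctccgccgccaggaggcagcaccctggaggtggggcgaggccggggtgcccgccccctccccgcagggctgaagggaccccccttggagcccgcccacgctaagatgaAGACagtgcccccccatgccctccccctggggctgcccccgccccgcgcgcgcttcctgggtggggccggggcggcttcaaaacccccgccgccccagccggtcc
Acvr1: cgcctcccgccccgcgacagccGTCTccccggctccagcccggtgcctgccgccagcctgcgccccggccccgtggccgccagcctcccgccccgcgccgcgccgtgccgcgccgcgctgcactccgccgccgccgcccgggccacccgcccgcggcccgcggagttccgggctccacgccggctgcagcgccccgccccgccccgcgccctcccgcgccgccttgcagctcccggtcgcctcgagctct
Bmp6: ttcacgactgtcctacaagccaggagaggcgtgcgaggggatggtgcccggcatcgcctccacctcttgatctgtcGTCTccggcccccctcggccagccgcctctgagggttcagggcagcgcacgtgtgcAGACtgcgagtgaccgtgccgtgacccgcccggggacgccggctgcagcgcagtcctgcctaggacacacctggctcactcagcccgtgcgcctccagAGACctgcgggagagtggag
The AGAC core occurred 1 time each in the Inhba, Tgfb1 and Acvr1 windows and 3 times in the Bmp6 window, and 82.9% of 32851 such windows in the RefSeq table hold it. The longer CAGAC, which contains that core, occurred only in the Bmp6 window among these 4, and in 42.2% of all windows. Neither GGCGCC, a GC-rich SMAD element found in 9.59% of all windows, nor TGANTCA, the AP-1 element found in 6.75%, occurred in any of the 4 windows on either strand. The windows differed in base composition, with 43.2% G and C for Inhba, 75.2% for Tgfb1, 85.6% for Acvr1 and 68.8% for Bmp6. These are matches of letters in short windows, and no binding was measured.

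The activin subunit gene Inhba had log2 ratios of 2.06, 1.88 and 1.86 on the 4 h arrays, against 1.63, 0.84 and 1.31 on the control arrays, in the order of replicate numbers 1 to 3. All 3 values at 4 h lay above all 3 control values, and control replicate 2 was the lowest of the 12 arrays. Within pairs of the same number the differences were 0.43, 1.04 and 0.55, a mean of 0.67 ± 0.323 (SD, n = 3 pairs), or 1.59-fold. The treated arrays varied less at 4 h (SD 0.11) than the control arrays did (SD 0.395), and pair 2, with the lowest control, gave the largest difference of the 3. Among the 8267 genes this mean difference was the 20th from the top, with the ratio in the direction read here, as for all such ranks below.

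At later times the Inhba values lay nearer to the control range. Its ratios were 2.00, 1.48 and 1.38 at 12 h and 1.91, 1.22 and 1.29 at 24 h. Both sets overlapped the control values, and replicate number 1 was the highest in every group. The difference from control was 0.36 at 12 h (SE 0.230, 95% interval -0.144 to 0.865) without the block and the same with an interval of 0.10 to 0.62 with it, and limma's adjusted p was 1 and 0.159, so the call was not made in either fit. The Inhba difference at 24 h was 0.21, with an interval of -0.05 to 0.47 in the fit with the block (limma adjusted p 0.725). Inhba was higher than its paired control in 3 of 3 pairs at 12 h and in 2 of 3 at 24 h. Being higher in all 3 pairs at 12 h was met by 14.7% of all genes. The mean difference of Inhba was the 39th from the top of all genes at 12 h and the 106th at 24 h. Both ranks use the control arrays that also helped to choose the gene.

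Tgfb1 had ratios of 0.48, 0.74 and 0.64 at 4 h, against 0.21, 0.22 and 0.09 in control cells. The groups did not overlap, and the lowest treated array stood above the highest control array. The pair differences were 0.26, 0.52 and 0.56, a mean of 0.45 ± 0.16 (SD, n = 3 pairs), or 1.36-fold, the 69th from the top of all genes. Pair 1 showed the smallest Tgfb1 difference.

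The Tgfb1 ratios were 0.19, 0.37 and 0.24 at 12 h and 0.25, 0.41 and 0.19 at 24 h. At both times the lowest array lay within the control range, the other arrays lay above it, and the array of replicate number 2 was the highest. Tgfb1 was higher than its paired control in 2 of 3 pairs at 12 h and in 3 of 3 at 24 h, the last being met by 13.7% of all genes. Against control the difference was 0.09 at 12 h, with an interval of -0.10 to 0.29 without the block and -0.040 to 0.225 with it. At 24 h it was 0.11, with intervals of -0.08 to 0.31 and -0.02 to 0.25. None of these Tgfb1 tests passed, with limma adjusted p of 1 at both times without the block and of 0.516 and 0.704 with it. The upper ends of these intervals lay below the 0.45 seen at 4 h, although a 4 h value that helped to choose the gene may overstate the difference.

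**Figure D1:**
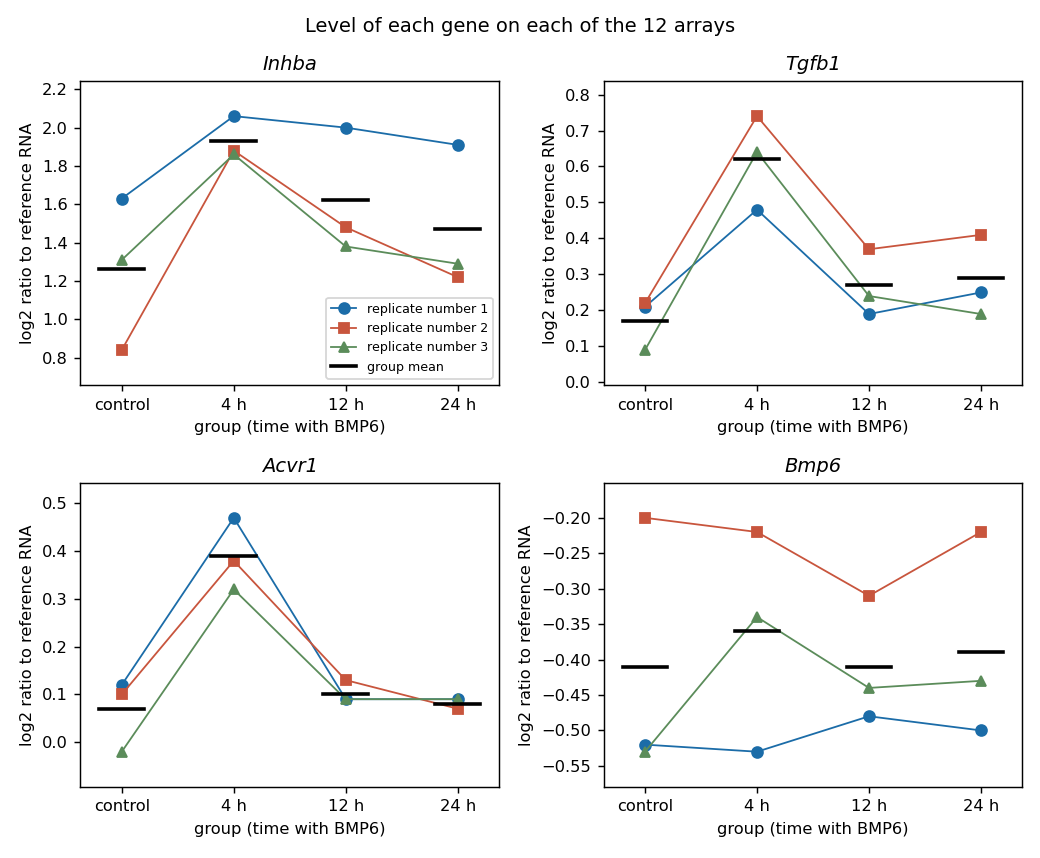
Log2 ratio to the reference RNA on every array for each gene, with groups on the x axis, arrays of the same replicate number joined by lines and black bars for group means (n = 3). Inhba, Tgfb1 and Acvr1 peak at 4 h, at means of 1.93, 0.62 and 0.39, while the Bmp6 lines run flat at levels that differ between replicate numbers.

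Acvr1, the gene of the receptor ALK2, had the tightest values of the 4. Its ratios were 0.47, 0.38 and 0.32 at 4 h, against 0.12, 0.10 and -0.02 in control cells, with no overlap between the groups. The pair differences were 0.35, 0.28 and 0.34, a mean of 0.32 ± 0.0397 (SD, n = 3 pairs), or 1.25-fold, the 135th from the top of all genes. The Acvr1 difference was smaller than those of Inhba and Tgfb1, while its spread between pairs was the smallest of the 3.

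At 12 h the Acvr1 ratios were 0.09, 0.13 and 0.09, and at 24 h they were 0.09, 0.07 and 0.09. These 6 arrays lay between 0.07 and 0.13, within or next to the control range of -0.02 to 0.12. The difference from control was 0.04 at 12 h, with an interval of -0.100 to 0.175 without the block and -0.070 to 0.146 with it. At 24 h the Acvr1 difference was 0.02, with intervals of -0.12 to 0.15 and -0.09 to 0.12. The limma adjusted p of these Acvr1 tests was 1 without the block, and 0.773 at 12 h and 0.964 at 24 h with it. The Acvr1 intervals at both later times ended below the mean 4 h difference of 0.32. That 4 h value helped to choose the gene and may overstate the difference, so this comparison is a description.

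Bmp6 itself showed no such pattern. Its ratios were -0.53, -0.22 and -0.34 at 4 h, against -0.52, -0.20 and -0.53 in control cells. They were -0.48, -0.31 and -0.44 at 12 h and -0.50, -0.22 and -0.43 at 24 h, so all 4 groups overlapped and replicate number 2 was the highest in each. The mean pair differences were 0.05 at 4 h, 0.01 at 12 h and 0.03 at 24 h, with SDs of 0.117, 0.1 and 0.0606 (n = 3 pairs each). In the fit with the block the Bmp6 intervals were -0.11 to 0.13 at 12 h and -0.09 to 0.15 at 24 h (limma adjusted p 0.979 and 0.93; 1 at both times without the block). Without the block the Bmp6 intervals were -0.24 to 0.25 at 12 h and -0.22 to 0.28 at 24 h. As folds of the endogenous Bmp6 transcript over control, the intervals without the block ran from 0.846 to 1.19 at 12 h and from 0.859 to 1.21 at 24 h, and those with it from 0.924 to 1.09 and from 0.939 to 1.11.

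The difference between 24 h and 12 h uses no control or 4 h value, although its intervals and adjusted p come from fits over all 12 arrays, in which those arrays enter the estimated spread and the block. Inhba differed by -0.15 (interval -0.65 to 0.36 without the block), Tgfb1 by 0.02 (-0.17 to 0.22), Acvr1 by -0.02 (-0.16 to 0.11) and Bmp6 by 0.02 (-0.23 to 0.27). None passed, with limma adjusted p of 1 for all 4 without the block and between 0.817 and 0.969 with it. Over all genes 0 passed limma's test without the block (152 at an unadjusted p under 0.05, and 0 by the methods' t-test after adjustment), and 9 passed with it, or 0.109%, with 0.0847% higher and 0.0242% lower.

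Against the 4 h arrays the later values were lower for 3 of the genes, given without a test because those arrays chose them. Inhba differed by -0.31 at 12 h and -0.46 at 24 h, Tgfb1 by -0.36 and -0.33, and Acvr1 by -0.28 and -0.31. Bmp6 differed by -0.04 and -0.02. The Inhba mean was lower at 24 h than at 12 h by less than the test above could separate. For 12 h against 4 h the fit with the block called 1.29% of all genes, 0.266% higher and 1.03% lower, and the fit without it called 0. For 24 h against 4 h it called 4.05%, 1.85% higher and 2.2% lower, and the fit without the block 0.0726%, 0.0242% higher and 0.0484% lower. Nothing is read from these shares about the 3 genes.

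**Figure D2:**
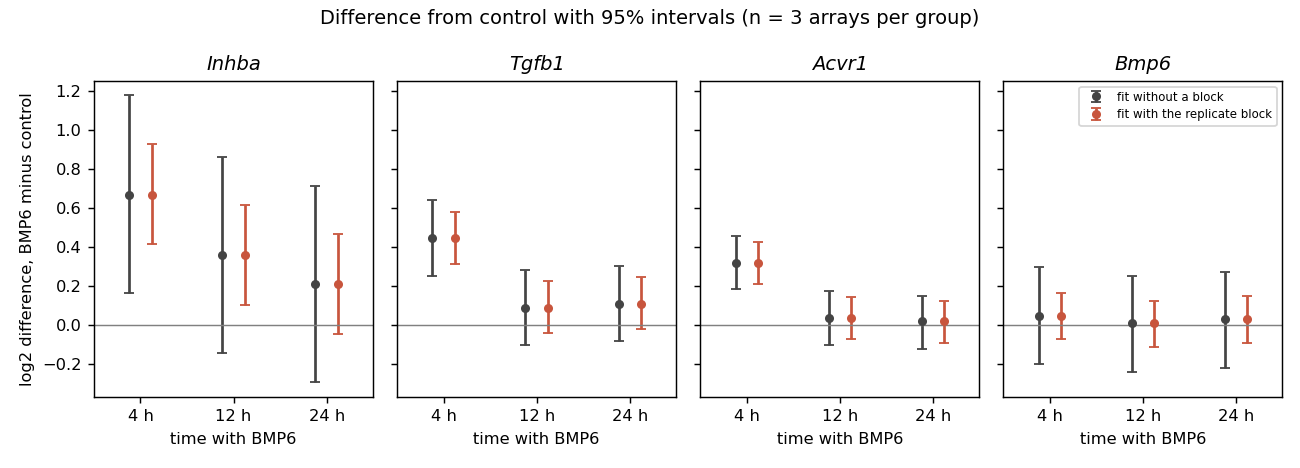
Log2 difference from control at 4, 12 and 24 h for each gene (points, n = 3 arrays per group), with 95% intervals from the limma fits without a block (dark) and with the replicate number as a block (red). The 4 h intervals of Inhba, Tgfb1 and Acvr1 lie above 0 by choice of the genes, and at 24 h all intervals of the 4 genes span 0.

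The genes differed in what set their variation over the 12 arrays. For Acvr1 the 4 groups held 89.7% of the sum of squares and the replicate number 4.96%, and for Tgfb1 they held 79.3% and 13.6%. For Inhba the shares were 45.7% and 42.7%, and for Bmp6 they were 2.52% and 85.9%. The group shares of the first 3 rest on the 4 h values that chose them. Replicate number 1 was high for Inhba, with a mean of 1.90 over its 4 arrays against 1.36 and 1.46 for numbers 2 and 3, while number 2 was high for Bmp6, at -0.24 against -0.51 and -0.44.

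After 4 h, 3 of the 4 genes had groups that did not overlap and were higher, where 3.81% of all genes were higher without overlap and 6.33% lower. Nothing is read from this count, because the 4 h comparison chose the genes. Over all genes limma called 2.27% higher at 4 h with the block (6.02% in either direction) and 0.121% higher without it (0.169% in either direction). At 12 h and at 24 h 0 of the 4 were called in either fit, where with the block 1.89% and 0.169% of all genes were. None of the 4 had groups without overlap at these times, where 3.13% of all genes were higher and 4.14% lower without overlap at 12 h, and 2.01% higher and 2.47% lower at 24 h. Without the block 0 genes of 8267 were called by limma at either time (393 and 166 at an unadjusted p under 0.05), and the methods' t-test called 1 and 0 after adjustment. All 3 times were set against 1 set of 3 control arrays.

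Of the other ligand genes of the superfamily, 12 of 30 listed were measured. At 4 h their median difference was 0.023, against -0.006 over all genes, with 9 of 12 above 0. Tgfb2, which encodes TGF-beta 2, fell in the fit with the block and was the only call among the 12, where 3.75% of all genes were called lower. The others lay between -0.11 for Bmp4 and 0.14 for Lefty2, among them Bmp2 at 0.01 and Bmp7 at 0.06, and did not pass.

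Tgfb2 ran opposite in sign to Tgfb1 at 4 h, which is a description only, since Tgfb1 was chosen for being high at that time. Its ratios were 0.46, -0.08 and 0.04 at 4 h, against 0.76, 0.19 and 0.44 in control cells. The groups overlapped, but each 4 h array lay below its own control, by 0.30, 0.27 and 0.40. The difference of -0.32 had an SE of 0.079 with the block and 0.228 without it (limma adjusted p 0.0394 and 0.89).

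At 12 h the Tgfb2 ratios were 0.29, -0.33 and 0.14 and at 24 h they were 0.88, 0.14 and 0.73. The 12 h arrays were lower than their controls in 3 of 3 pairs, and the 24 h arrays higher in 2 of 3. Tgfb2 fell by 0.44 at 12 h with the block (limma adjusted p 0.0245; 1 without it), where 1.42% of all genes were called lower. At 24 h it differed from control by 0.12 (adjusted p 0.798 with the block), and it was 0.55 higher than at 12 h (limma adjusted p 0.0399 with the block, 1 without it). These calls were sensitive to leaving out single arrays, written here as group and number. The 4 h difference itself kept its sign, running from -0.39 leaving out 4h-2 to -0.23 leaving out 4h-3. With 1 array left out of the fit with the block, the 4 h call of Tgfb2 was lost in 9 of 12 fits: the adjusted p was 0.0717, 0.152 and 0.0599 leaving out control-1, control-2 and control-3, 0.0649 and 0.157 leaving out 4h-1 and 4h-3, 0.0561, 0.0576 and 0.0541 leaving out 12h-1, 12h-2 and 12h-3, and 0.0626 leaving out 24h-1. Its 12 h call was lost in 5 of 12, at 0.0642 and 0.131 leaving out control-1 and control-2, and at 0.121, 0.13 and 0.0502 leaving out 12h-1, 12h-2 and 12h-3. The call of 24 h over 12 h was lost in 9 of 12, at 0.0699 and 0.0619 leaving out control-1 and control-2, at 0.0806 leaving out 4h-1, at 0.274, 0.309 and 0.0683 leaving out 12h-1, 12h-2 and 12h-3, and at 0.218, 0.0586 and 0.199 leaving out 24h-1, 24h-2 and 24h-3.

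**Figure D3:**
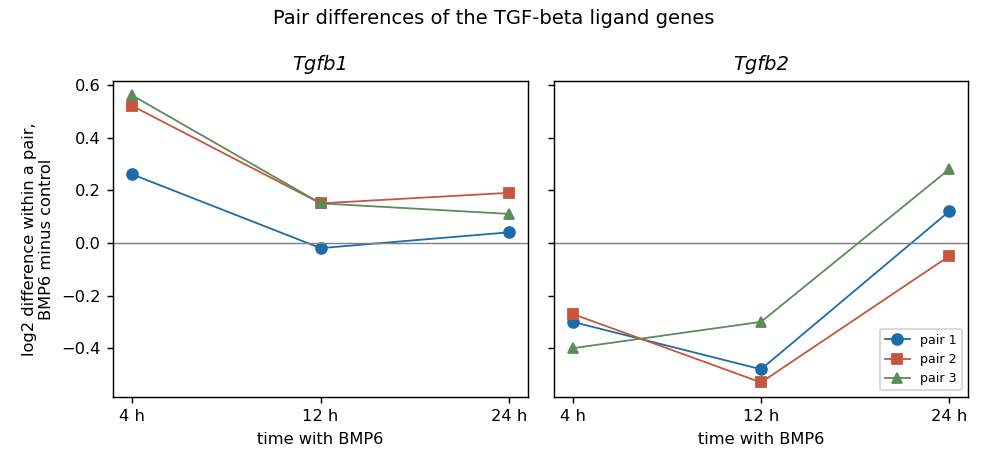
Log2 difference between BMP6 and control arrays of the same replicate number (3 pairs, lines) at 4, 12 and 24 h for Tgfb1 (left) and Tgfb2 (right). At 4 h the Tgfb1 pairs lie between 0.26 and 0.56 and the Tgfb2 pairs between -0.40 and -0.27, and at 24 h the Tgfb2 pairs lie between -0.05 and 0.28.

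Among the other receptor genes 7 of 11 listed were measured, and 0 passed in either limma fit at 4, 12 or 24 h. Over all genes the fit with the block called 6.02%, 1.89% and 0.169% at these times. The median difference of the receptor genes at 4 h was 0.041, with a range from -0.10 for the BMP type I receptor Bmpr1a to 0.18 for the BMP type II receptor Bmpr2. Bmpr2 had -0.53 on each of the 3 arrays at 4 h, against -0.79, -0.73 and -0.60 in control cells, without overlap. Its limma adjusted p was 0.0656 with the block and 0.51 without it, and 3.81% of all genes were higher without overlap at 4 h. Acvr1b lay below control without overlap at 12 h, from -0.77 to -0.62 against -0.55 to -0.40 (limma adjusted p 0.17 with the block). At 12 h 4.14% of all genes were lower without overlap. The activin receptors Acvr1b, Acvr2a and Acvr2b differed by 0.04, -0.02 and 0.02 at 4 h, and the TGF-beta receptors Tgfbr1 and Tgfbr2 by 0.05 and 0.10. Neither measured coreceptor gene passed, with Tgfbr3 at -0.18 and Tdgf1 at 0.04.

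Of the intracellular mediators 9 of 15 were measured, and the transcriptional repressor Skil, which binds SMADs, was the one called at 4 h, with the block. Over all genes the fit with the block called 2.27% higher at 4 h and 0.472% higher at 12 h. Skil had 0.15, 0.31 and 0.35 at 4 h, against -0.40, -0.36 and -0.12 in control cells, and rose by 0.57 (SE 0.048, limma adjusted p 0.000293 with the block, 0.0501 without it). It was still 0.33 above control at 12 h (0.00891 with the block, 0.69 without it) and 0.26 at 24 h, where it did not pass (0.106 with the block). The 12 h call of Skil was lost leaving out control-2 (0.0606), 12h-1 (0.0586) or 12h-2 (0.0655). The receptor-activated Smad1 and Smad5 differed by 0.13 and -0.04 at 4 h and did not pass.

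Extracellular antagonists and the genes of ligand latency and processing had 0 calls in either limma fit at any of the 3 times, with 6 of 17 and 7 of 13 listed genes measured. The shares of all genes called with the block at 4, 12 and 24 h were 6.02%, 1.89% and 0.169%. At 4 h the antagonists had a median difference of 0.155, with the activin binders Fst at 0.14, Fstl3 at 0.17 and the BMP antagonist Nog at 0.25, while Crim1 stood at -0.06 and Twsg1 at -0.04. The latency and processing genes had a median of 0.142, with the proprotein convertase Furin at 0.23 and the integrin subunit Itgav, which takes part in releasing TGF-beta from its latent complex, at 0.30 (adjusted p 0.062 and 0.0586 with the block).

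Of 8 measured BMP targets, the inhibitors of DNA binding Id1, Id2 and Id3 rose with the block at 4, 12 and 24 h. None of the 3 passed without the block. Their differences were 0.98, 0.84 and 0.64 at 4 h, 0.97, 1.27 and 0.79 at 12 h, and 1.07, 1.19 and 0.92 at 24 h. Of all genes 2.27%, 0.472% and 0.0726% were called higher with the block at these times. The other targets, Hey1, Hey2, Msx1, Msx2 and Dlx5, did not pass against control. They lay between 0.01 for Dlx5 and 0.08 for Msx2 at 4 h. Their range was -0.12 for Msx1 to 0.11 for Msx2 at 12 h, and -0.23 for Msx1 to 0.06 for Msx2 at 24 h. The 24 h call of Id2 (limma adjusted p 0.00869; 0.924 without the block) was lost leaving out control-1 (0.0602), control-2 (0.0612), 24h-2 (0.0738) or 24h-3 (0.072). Whether the courses of Id1, Id2 and Id3 differ from those of Inhba, Tgfb1 and Acvr1 was not tested, since the 4 h values chose the last 3.

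Of 7 measured TGF-beta and activin targets, Ccn2, Snai1 and Skil rose at 4 h with the block, where 2.27% of all genes were called higher. The others did not pass at 4 h, with Fn1 at 0.28, Tgfb1i1 at 0.01, Col1a1 at -0.11 and Tgfbi at -0.21. The matricellular factor Ccn2 had 1.58, 1.98 and 1.22 at 4 h, against 0.31, 0.05 and 0.29 in control cells, a rise of 1.37 (limma adjusted p 0.00354 with the block, 0.0362 without it). Ccn2 was back at 0.21 ± 0.461 at 12 h (SD, n = 3), close to the control mean of 0.22. The transcription factor Snai1 rose by 0.79 at 4 h and by 0.63 at 12 h (adjusted p 0.00243 and 0.0145 with the block, 0.0555 and 0.354 without it), and its 12 h call was lost leaving out control-1 (0.0509), control-2 (0.101), 12h-1 (0.0952) or 12h-2 (0.084). Tgfbi, named for its induction by TGF-beta, fell by 0.34 at 12 h with the block (0.0317; 1 without it), a call lost leaving out control-1 (0.0587), control-2 (0.148), 12h-1 (0.114), 12h-2 (0.162), 12h-3 (0.105) or 24h-1 (0.0555).

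Over the pathway lists without the 4 genes, 57 of 114 genes were measured. With the block 6 were called higher and 1 lower at 4 h, 5 higher and 2 lower at 12 h, and 3 higher and 0 lower at 24 h. The shares of all genes called with the block were 2.27% higher and 3.75% lower at 4 h, 0.472% and 1.42% at 12 h, and 0.0726% and 0.0968% at 24 h. The lists were chosen with earlier results of these data known, so nothing is read from these counts against the shares. Without the block Ccn2 at 4 h was the only call over the 3 times. Their median difference was 0.053 at 4 h, -0.006 at 12 h and 0.022 at 24 h, against -0.006, -0.002 and -0.005 over all genes.

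**Figure D4:**
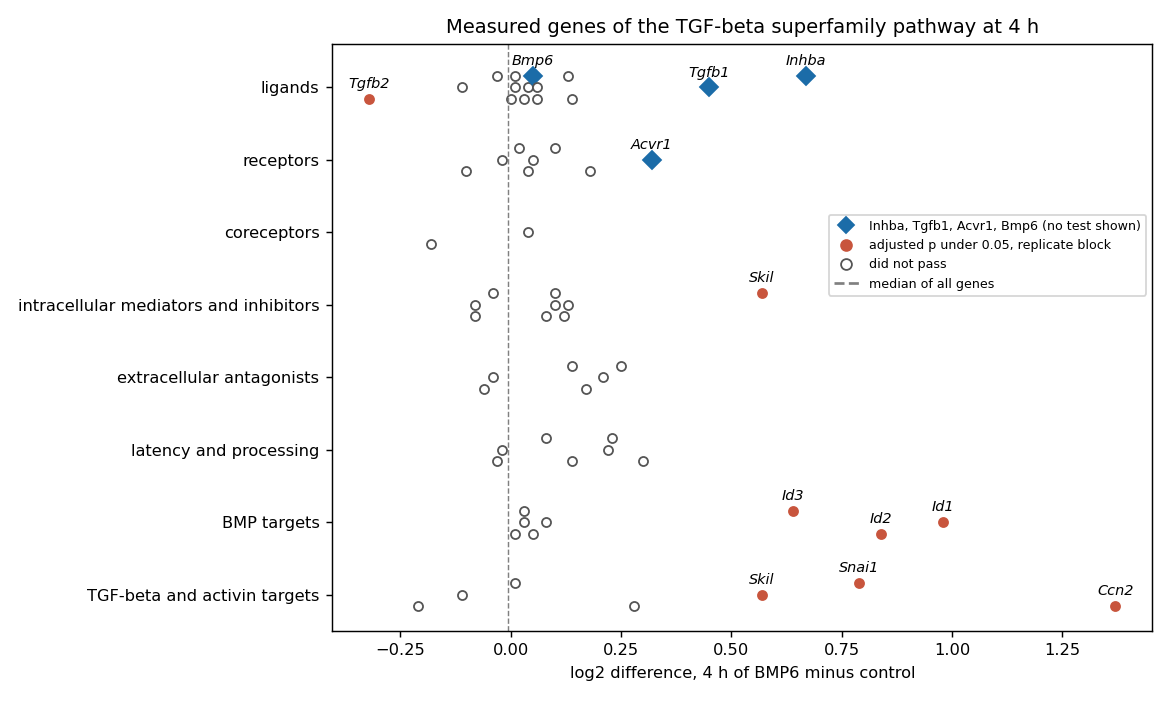
Log2 difference between 4 h of BMP6 and control for each measured gene of 8 pathway lists (rows), with blue diamonds for the 4 genes described, red points for genes that passed in the limma fit with the block, open points for the rest and a dashed line at the median of all genes. Inhba, Tgfb1 and Acvr1 lie to the right of the other ligand and receptor genes, Bmp6 lies among them at 0.05, and Tgfb2 lies at the far left at -0.32.

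Of 7 fibroblast and mesenchymal markers, Prrx1, Cdh11 and Col3a1 fell at 4 h with the block, by 0.49, 0.44 and 0.24 (limma adjusted p 0.00754, 0.0251 and 0.0363), where 3.75% of all genes were called lower. Without the block none of these 3 passed (0.195, 0.704 and 0.214). The mean of the list ran from -0.82 to -0.32 on the 4 h arrays, against -0.58 to -0.22 on the control arrays. Of 5 smooth muscle markers Cnn1 rose with the block, by 0.25 (limma adjusted p 0.0135, and 0.778 without it). The others did not pass, with Acta2 at 0.19, Myh11 at 0.10, Smtn at -0.05 and Des at -0.11. Of 8 endothelial markers Flt1 rose with the block, by 0.23 (limma adjusted p 0.0366, and 0.346 without it). With the block 2.27% of all genes were called higher. Of the 8 endothelial markers 5 lay above 0 at 4 h, with a median of 0.065. Those that did not pass included Sox18 at 0.23, Flt4 at 0.10, Kdr at 0.07 and Sox17 at 0.06. Pecam1 at -0.27, Cdh5 at -0.11 and Esam at -0.08 lay below 0 and did not pass either. With or without the block 0 of 8 epithelial and 0 of 2 blood cell markers passed at 4 h. The part of these shifts in the values of Inhba, Tgfb1 and Acvr1 was not tested.

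The genes most like each of the 4 in pattern were found by Pearson r over the 12 arrays, after subtracting the mean of the 4 arrays of each replicate number. The arrays share controls, groups and normalization, so these r are descriptions. For Inhba they were Nhlrc2 (r = 0.966), the nucleotide sugar enzyme gene Ugdh (0.963) and Hbegf, which encodes a ligand of the EGF receptor (0.961). For Tgfb1 they were Itga5, which encodes a subunit of the fibronectin receptor (0.981), Akap2 (0.975) and Rnf149 (0.96). For Acvr1 they were Hip1r (0.933), the bestrophin gene Best1 (0.933) and Itga5 again (0.929). For Bmp6 they were Sh3gl1 (0.96), Tent5c (0.948) and Fam78a (0.941). Pearson r takes no account of the size of a difference. Nhlrc2 differed from control by a mean of 0.09 at 4 h, against 0.67 for Inhba.

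Itga5 had 0.48, 0.74 and 0.46 at 4 h, against 0.15, 0.23 and -0.02 in control cells, a mean pair difference of 0.44, and stood 0.11 and 0.08 above control at 12 and 24 h. Hbegf had a larger difference of 0.98 at 4 h, with 0.47 at 12 h and 0.22 at 24 h, values given without a test because the gene was picked for its pattern. Inhba, Tgfb1 and Acvr1 were chosen for being high at 4 h, which sets much of their likeness to each other and their unlikeness to Bmp6, so the values among the 4 are descriptions of that choice. Among them, Tgfb1 correlated with Acvr1 at r = 0.891 and with Inhba at 0.858, and Inhba with Acvr1 at 0.702. Bmp6 correlated with Tgfb1 at 0.461, with Acvr1 at 0.326 and with Inhba at 0.191.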

How the data were processed

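Per the labels and the series' design text, the authors scanned the arrays with a GenePix 4000B scanner, quantified them with GenePix Pro 5.0 and applied a modified quantile normalization of their own to the values. The deposited values are taken as log2 ratios of the 2 channels, normalized by the authors. The sources used here do not give the log base, the direction or the background correction. No spot intensities were used, so detection is not judged, and precision is limited by having 3 arrays per group.

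Genes were named from the platform annotation, which lists 11083 probe numbers, 10576 of them with 1 symbol (updated through gene identifiers for 10548) and 507 with several, which name no gene here. The other 9197 value rows carry no name. Probe i of the 22575 grid positions was read in transposed and reversed order. Of 6 orders compared, this one gave r = 0.471 between the first 2 probes of a gene, and the rest at most 0.065. Probes of a gene were averaged.

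Tests used limma 3.58.1 in R 4.3.3 (lmFit, eBayes, two-sided) over 12 arrays and 8267 genes, after a check on simulated data with 200 changed genes. All 18 correlations of deviations between same-numbered arrays of different groups lay between 0.443 and 0.695, and those between differently numbered ones between -0.564 and 0.069. The numbers therefore pair the arrays, by a minimum of 0.1. The numbers come from the titles, which do not say what they share, and the pairing from these correlations.

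The 4 genes and all lists were chosen with earlier results of these data known. Genes are named by these rules: the 4 genes, pathway genes called against control in either fit, near relatives by role, and the 3 genes most like each of the 4. The other marker and pathway genes named were chosen after their values were seen. Alternatives were the replicate block, quantile normalization, median centring, leaving out each array, single probes and the two-tailed equal-variance test of the methods. Leaving out arrays within the block fit, and single probes with the block, were chosen after seeing the data.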

Additional observations from a re-analysis of the deposited data

Results flagged for a closer look

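Effects at 2 times differed for 3 of the pathway genes called against control, by the limma contrast between those times. The BMP target Msx1, not called against control, was also called lower at 24 h than at 4 h with the block and not without it. Over all genes the fit with the block called 1.29% at 12 h against 4 h, 4.05% at 24 h against 4 h and 0.109% at 24 h against 12 h. Tgfb2 was 0.44 higher at 24 h than at 4 h (adjusted p 0.0138) and 0.55 higher at 24 h than at 12 h (0.0399), both with the replicate block. Skil differed by -0.24 at 12 h against 4 h (0.0476) and by -0.31 at 24 h against 4 h (0.00802), both with the block. Ccn2 differed by -1.38 at 12 h against 4 h with the block (0.0198) and by -1.55 at 24 h against 4 h, the last passing in both fits (0.0285 without and 0.00401 with the block).

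Without the block the contrasts of Tgfb2 and Skil and that of Ccn2 at 12 h did not pass. Their limma adjusted p were 0.799 and 1 for Tgfb2 at 24 h against 4 h and against 12 h, 0.999 and 0.365 for Skil at 12 h and 24 h against 4 h, and 0.146 for Ccn2 at 12 h against 4 h. The block call of Tgfb2 at 24 h over 12 h was lost in 9 of 12 fits with 1 array left out, where the adjusted p ran from 0.0275 to 0.309. That of Tgfb2 at 24 h over 4 h was lost in 3 of 12, at 0.0585 and 0.0785 leaving out the 24 h arrays numbered 1 and 3 and at 0.0573 leaving out the 4 h array numbered 3. The call of Skil at 12 h against 4 h was lost in 11 of 12 (0.033 to 0.243), all but the fit leaving out the control array numbered 3, and at 24 h against 4 h in 1 of 12, at 0.0544 leaving out the 24 h array numbered 2. The call of Ccn2 at 12 h against 4 h was lost in 3 of 12, at 0.0655 and 0.103 leaving out the 12 h arrays numbered 1 and 3 and at 0.144 leaving out the 4 h array numbered 2, and at 24 h against 4 h in 0 of 12.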

How the results depend on the processing

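The 4 h differences of Inhba, Tgfb1, Acvr1 and Bmp6 moved by less than 1 replicate SD under quantile normalization and median centring. The replicate block, the methods' t-test and single probes could not move them, because the groups are balanced and each gene has 1 probe. At 12 h, at 24 h and for 24 h against 12 h none of the 4 genes passed under any setting named here or with 1 array left out. Bmp6 changed sign under quantile normalization, at -0.019 for 12 h and -0.004 for 24 h. With 1 array left out, in the fits without and with the block, the log2 differences of Inhba ran from 0.464 to 0.858 at 4 h, from 0.152 to 0.546 at 12 h, from -0.009 to 0.397 at 24 h and from -0.370 to 0.041 for 24 h against 12 h. Those of Tgfb1 ran from 0.387 to 0.520, 0.041 to 0.155, 0.051 to 0.176 and -0.042 to 0.072, those of Acvr1 from 0.279 to 0.358, -0.006 to 0.066, -0.028 to 0.041 and -0.053 to -0.003, and those of Bmp6 from -0.021 to 0.156, -0.051 to 0.113, -0.054 to 0.135 and -0.060 to 0.082, in the same order of comparisons.

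The count of genes called at 4 h was 14, and 498 with the replicate block, 27 after quantile normalization, 0 by the methods' t-test after adjustment and 474 before it, and 548 single probes with the block. It ran from 3 to 51 with 1 array left out, and from 208 to 642 with the block. It was 3 leaving out the control array numbered 1 or 2 or the 4 h array numbered 3, 4 and 9 leaving out the 4 h and 24 h arrays numbered 2, and 51 leaving out the 4 h array numbered 1. With the block it was 208 leaving out control array 2, and 238 and 215 leaving out 4 h arrays 2 and 3. At 12 h the count was 0, and 156 with the block, 1 after quantile normalization, 1 and 297 by the methods' t-test after and before adjustment, and 109 single probes with the block. With 1 array left out it ran from 0 to 1, and from 22 to 288 with the block, where it was 288 and 34 leaving out control arrays 3 and 2, 35, 22 and 62 leaving out 12 h arrays 1, 2 and 3, and 97, 96 and 93 leaving out 24 h arrays 1, 2 and 3. At 24 h the count was 0, and 14 with the block, 175 by the unadjusted methods' t-test and 4 single probes with the block. It stayed at 0 with 1 array left out, and ran from 2 to 16 with the block, where control arrays 1, 2 and 3 left 3, 3 and 7, 12 h arrays 2 and 3 left 9 and 8, and 24 h arrays 1, 2 and 3 left 6, 2 and 3. For 24 h against 12 h it was 0, and 9 with the block, 1 after quantile normalization, 256 by the unadjusted methods' t-test and 4 single probes with the block, and 0 throughout with 1 array left out. In the block fit that range was 0 to 28, with 0, 4 and 28 leaving out control arrays 1, 2 and 3, 0 leaving out 4 h array 1, 0, 0 and 1 leaving out 12 h arrays 1, 2 and 3, and 0, 1 and 0 leaving out 24 h arrays 1, 2 and 3. With the block 10, 7, 3 and 1 pathway genes were called in these comparisons, against 1, 0, 0 and 0 without it. The 10 at 4 h include Inhba, Tgfb1 and Acvr1, which were chosen on that comparison, and 7 remain without them. Over all genes the block fit called 6.02%, 1.89%, 0.169% and 0.109%. The causes of these differences between settings were not tested.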
